A study of Mus musculus with 20 samples.

Results

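The Slco genes encode the organic anion transporting polypeptides (OATPs), a family of membrane carriers. The 9 Slco genes described here were taken by gene symbol from count tables of 24762 genes, which held 11 Slco symbols in all. Polyadenylated transcripts of whole kidneys had been sequenced in 20 libraries, 4 groups of 5, from mice of the C57BL/6J strain. All mice had undergone orchidectomy, which removes the testes as the main source of androgen, and had then been given testosterone or vehicle for 4 days. The groups were ARLmon/Y mice with testosterone, ARLmon/Y mice with vehicle, wild type mice with testosterone and wild type mice with vehicle. ARLmon is a germline allele, and gene counts do not show a base change, so no value here checks a genotype label. Levels are in CPM (counts divided by the TMM-scaled depth of each library; mean ± SD, n = 5 here and below). Age, dose and whether each library came from its own animal are not given in the sources used here, so each p measures the spread between these libraries, which may be technical in part.

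OATPs move bulky organic anions across the plasma membrane without coupling to sodium, among them bile acids, conjugated steroids, thyroid hormones, prostaglandins and many drugs. In the kidney several of them sit in the membranes of the proximal tubule, where they take part in the uptake, reabsorption and secretion of such compounds. Slco1a1, which encodes Oatp1a1, is known in mice as a carrier of steroid conjugates and bile acids that is more abundant in male than in female kidneys, and Slco2a1 encodes the prostaglandin transporter.

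Reads assigned to genes ran from 8342000 to 38101526 per library, and mitochondrial genes took 6.86% to 11.1% of them. Libraries GC078604 (wild type, vehicle) and GC078618 (ARLmon, vehicle) lay farthest from their groups on the main axis of variation within groups. The summed level of 5 adrenal markers was 52.8 CPM in the ARLmon vehicle library GC078620. It had a median of 1.71 CPM in that group and was at most 2.55 CPM in the other groups. All 13 proximal tubule markers had reads in every group, and their summed level was 10470 to 12430 CPM in ARLmon kidneys with testosterone, 9294 to 11180 CPM in ARLmon kidneys with vehicle, 19450 to 22230 CPM in wild type kidneys with testosterone and 9174 to 14890 CPM in wild type kidneys with vehicle. Of the 13, 7 rose and 1 fell with testosterone in wild type kidneys, beside 9.36% and 6.36% of all tested genes. Under each treatment 7 were lower in ARLmon than in wild type kidneys, beside 15.5% of all tested genes under testosterone and 2.38% under vehicle. This list holds Slc7a13 and Acsm3, whose own levels moved with Slco1a1. Whole-kidney RNA was measured, so fewer cells of a type and less RNA per cell cannot be told apart.

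The family's transcript pool was dominated by Slco1a6 in every group other than wild type kidneys with testosterone. To compare genes, CPM was divided by the length in kb of all annotated exons of a gene, with overlaps counted once. This length was 13545 bases for Slco2a1 and 3808 bases for Slco1a6, so the order of the genes depends on it. The 9 genes summed to 86.1 ± 23.7 CPM per kb in ARLmon kidneys with testosterone, 73.2 ± 8.56 in ARLmon kidneys with vehicle, 444 ± 63.3 in wild type kidneys with testosterone and 109 ± 9.99 in wild type kidneys with vehicle. Slco1a1 made up 0.0828 ± 0.0386% and 0.0826 ± 0.0658% of this sum in the ARLmon groups with testosterone and with vehicle, against 60.8 ± 4.63% in wild type kidneys with testosterone and 3.45 ± 0.832% in wild type kidneys with vehicle. Slco1a6 held 67.4 ± 4.96% and 67.7 ± 3.45% in the ARLmon groups with testosterone and with vehicle, 25.2 ± 2.40% in wild type kidneys with testosterone and 60.1 ± 6.36% in wild type kidneys with vehicle. Without Slco1a1 the sums per kb were 86.05, 73.1, 173 and 105 CPM in the same order of groups. In wild type kidneys with vehicle Slco1a6 came first among the 9 genes at 65.4 CPM per kb. Slco3a1 followed at 14.6, Slco4a1 at 8.65, Slco4c1 at 6.86, Slco2b1 at 6.14, Slco1a1 at 3.69, Slco2a1 at 3.19 and Slco1a4 at 0.473 CPM per kb. Slco5a1 was last at 0.00355 CPM per kb.

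**Figure D1:**
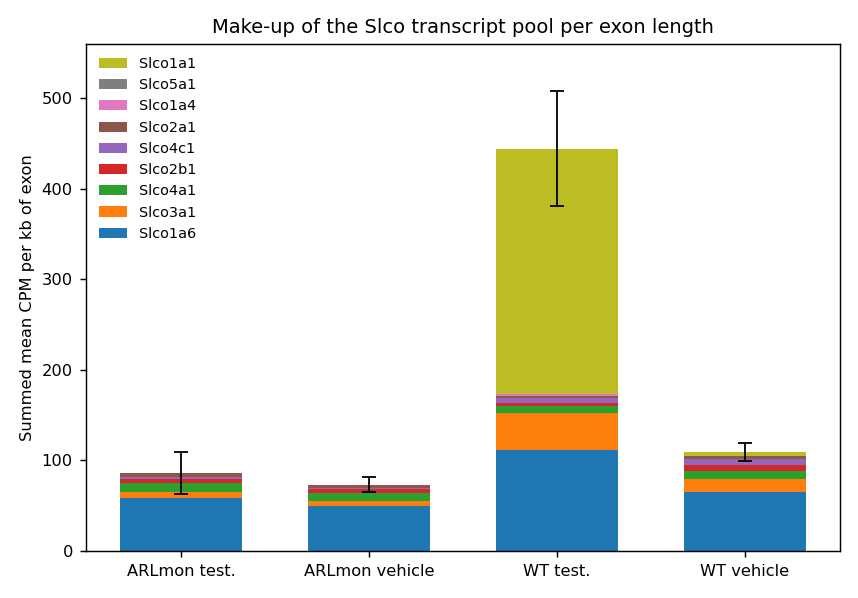
Stacked bars give the group mean of CPM per kb of exon for each of the 9 Slco genes (y axis) in the 4 groups of 5 libraries, and the error bar is the SD of the summed level over libraries. The bar for wild type kidneys with testosterone reaches 444 CPM per kb, most of it Slco1a1, and the other bars lie between 73.2 and 109.

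Testosterone changed most of the family in wild type kidneys and no member past the threshold in ARLmon kidneys. With edgeR's quasi-likelihood test and Benjamini-Hochberg adjustment over 15549 genes, a gene was called at an adjusted p below 0.05. Of the 9 members, 8 passed the filter on low counts and were tested, and Slco5a1 did not. In wild type kidneys testosterone over vehicle gave calls for 6 of the 8, of which 4 rose and 2 fell, where 15.7% of all tested genes were called, 9.36% higher and 6.36% lower. The libraries of the wild type groups did not overlap for 5 members, as for 12.6% of all genes. Between ARLmon testosterone and ARLmon vehicle 0 members were called, where 0.0% of all genes were, and also 0 members with DESeq2 or limma-voom, while 0 members and 813 of the 15549 genes had an unadjusted p below 0.05. The ARLmon groups overlapped for all 9 members, and did not for 0.778% of all genes. Between ARLmon and wild type kidneys under testosterone 7 members differed, 2 higher and 5 lower in ARLmon, beside 31.1% of all genes, 15.6% higher and 15.5% lower, and the libraries of 5 members did not overlap, as for 22.5% of all genes. Between the genotypes under vehicle 3 differed, all lower in ARLmon, beside 4.37% of all genes, 1.99% higher and 2.38% lower, and the libraries of 4 members did not overlap, as for 4.57% of all genes. The size of the log2 change had a median of 0.74 over the 8 tested members and 0.22 over all genes for testosterone in wild type kidneys, and 0.22 over the members and 0.14 over all genes for testosterone in ARLmon kidneys. It was 1.08 and 0.30 between the genotypes under testosterone, and 0.59 and 0.16 under vehicle. These medians describe members that passed a filter on low counts. The comparisons share groups, so their values are not independent of each other.

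**Figure D2:**
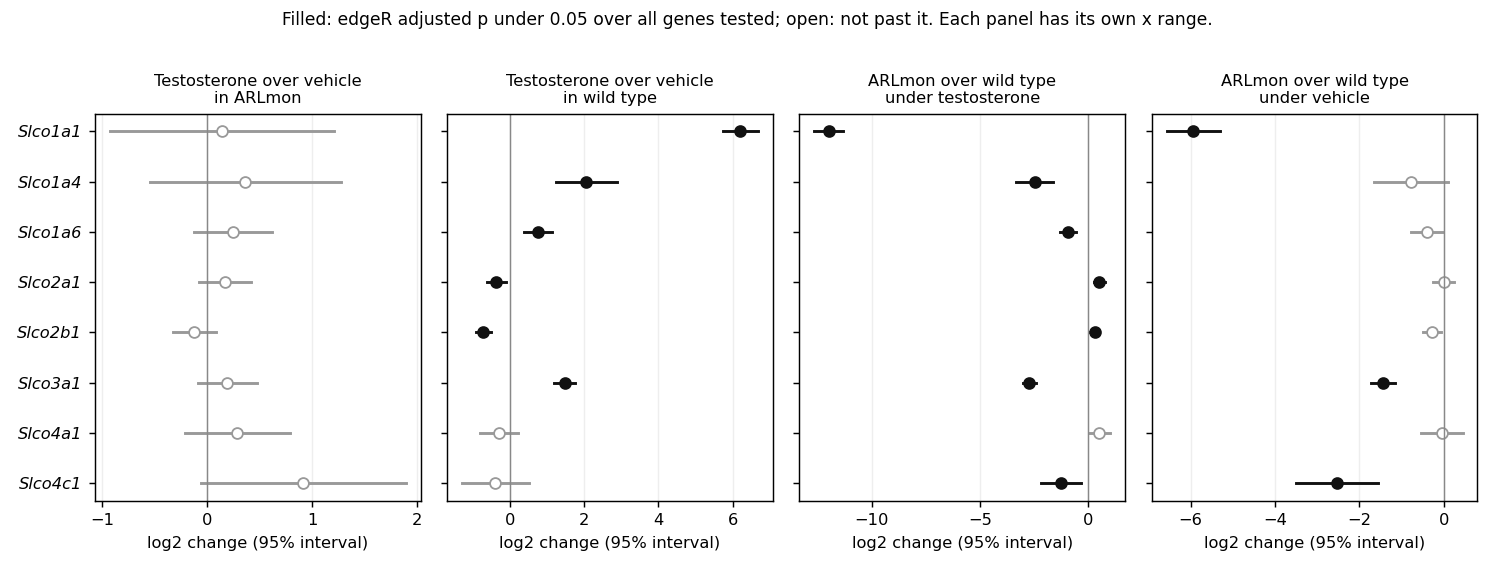
Each point is the log2 change of a tested Slco gene with its 95% interval (x axis, a range of its own in each panel) in 4 comparisons, filled where the edgeR adjusted p over all tested genes is below 0.05. Testosterone over vehicle in ARLmon kidneys has 0 filled points, and in wild type kidneys it has 6.

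Slco1a1 had the largest difference of all 15549 tested genes between ARLmon and wild type kidneys under testosterone, and also the smallest p there. The gene (chromosome 6, 141907282 to 141946962, minus strand, GRCm38) had 4, 4, 5, 5 and 8 reads in the ARLmon testosterone libraries GC078612 to GC078616 and 6, 5, 2, 10 and 0 reads in the ARLmon vehicle libraries GC078617 to GC078621. The 0 reads in GC078621 allow a level of up to 0.165 CPM (3 reads). In wild type kidneys with testosterone it reached 1717, 1260, 1377, 1704 and 1098 CPM in GC078607 to GC078611, and in wild type kidneys with vehicle 18.5, 15.4, 22.4, 18.3 and 22.9 CPM in GC078602 to GC078606. Every wild type library lay above every ARLmon library, and every wild type testosterone library above every wild type vehicle library, with no overlap, while the ARLmon groups overlapped throughout.

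Group means of Slco1a1 were 0.348 ± 0.115 and 0.321 ± 0.242 CPM in ARLmon kidneys with testosterone and with vehicle, and 1431 ± 273.6 and 19.5 ± 3.14 CPM in wild type kidneys with testosterone and with vehicle. Testosterone raised it in wild type kidneys by log2 6.20 ± 0.23 (SE here and below; adjusted p = 6.2e-14), which ranked it the 5th gene by size and the 2nd by p. In ARLmon kidneys the change was 0.14 ± 0.51 (95% interval -0.93 to 1.21, adjusted p = 0.939), at 26 reads in the testosterone group and 23 in the vehicle group. Limma-voom gave 0.73, and fits that each lack 1 library ran from -0.24 (without GC078621) to 0.56 (without GC078620). The difference between the testosterone effects, ARLmon minus wild type, was -6.06 ± 0.66 (adjusted p = 3.76e-06) and -5.47 with limma-voom. Slco1a1 was lower in ARLmon than in wild type kidneys by log2 -12.0 ± 0.32 under testosterone (adjusted p = 1.47e-16) and -5.94 ± 0.30 under vehicle (adjusted p = 1.96e-11). On the authors' deposited log2 values these differences came to -11.06 and -4.92.

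**Figure D3:**
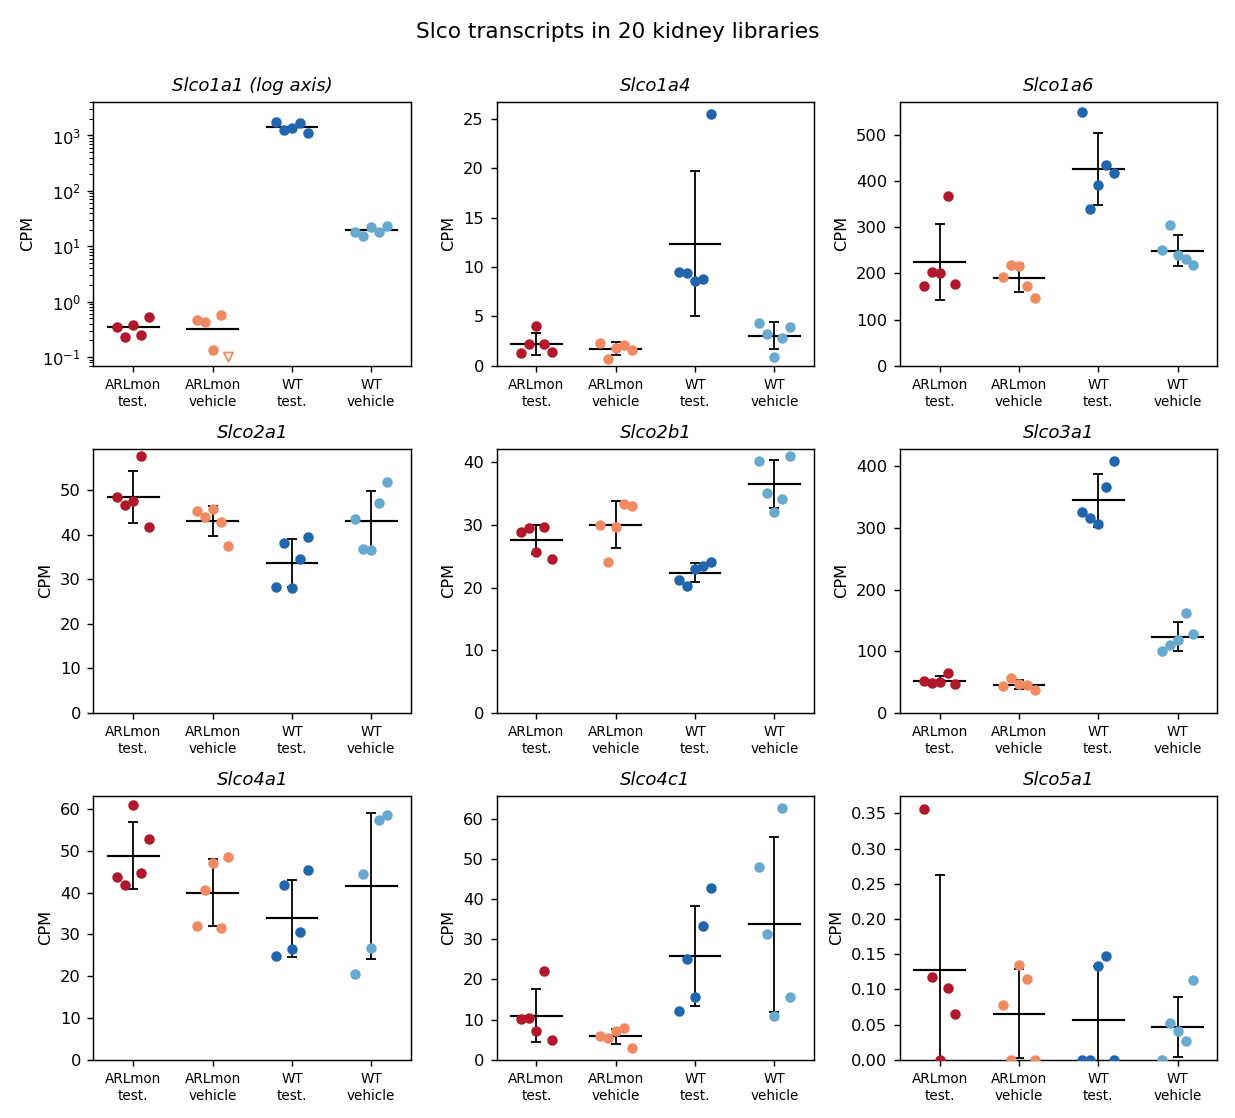
Each panel shows CPM (y axis) of one Slco gene in the 20 libraries by group, with the mean as a long line and the SD as an error bar. Slco1a1 is on a log axis without SD bars, and the open triangle marks the ARLmon vehicle library with 0 reads, placed at the foot of the axis. The wild type testosterone libraries of Slco1a1 lie between 1098 and 1717 CPM, and the ARLmon libraries at 0.574 CPM or less.

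Slco1a4 and Slco1a6 lie in the same cluster on chromosome 6 and also rose with testosterone in wild type kidneys, by less than Slco1a1. Slco1a4 (141805440 to 141856199, minus strand) encodes Oatp1a4, a carrier best known from liver and the blood-brain barrier. It had 1.25, 2.23, 4.04, 2.23 and 1.37 CPM in the ARLmon testosterone libraries and 2.34, 0.684, 1.81, 2.12 and 1.59 CPM in the ARLmon vehicle libraries. In wild type kidneys it had 9.51, 9.43, 8.62, 8.78 and 25.4 CPM with testosterone, against 4.37, 3.24, 0.856, 2.85 and 3.87 CPM with vehicle. The wild type testosterone libraries stood above all 15 others, and GC078611 lay far above the rest of its group. The rise in wild type kidneys was 2.06 ± 0.39 (adjusted p = 7.58e-04), and 1.61 without GC078611 (adjusted p = 0.00382). Slco1a4 was lower in ARLmon than in wild type kidneys under testosterone (-2.47 ± 0.41, adjusted p = 8.33e-05), and the values under vehicle gave -0.78 ± 0.42 (adjusted p = 0.351). Its change with testosterone in ARLmon kidneys was 0.37 ± 0.44 (95% interval -0.54 to 1.27), and the difference between the testosterone effects did not pass the threshold (-1.69 ± 0.58, adjusted p = 0.112).

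Slco1a6 (142085761 to 142208521, minus strand) encodes Oatp1a6, which in mice is found mainly in the kidney. It had 172, 204, 200, 368 and 178 CPM in the ARLmon testosterone libraries, 193, 218, 216, 172 and 147 CPM in the ARLmon vehicle libraries, 550, 340, 390, 434 and 416 CPM in the wild type testosterone libraries and 251, 306, 239, 231 and 218 CPM in the wild type vehicle libraries. The wild type testosterone libraries lay above both vehicle groups, while the ARLmon testosterone library GC078615 fell within their range. Testosterone raised Slco1a6 in wild type kidneys by 0.78 ± 0.18 (adjusted p = 0.00459), a 1.71-fold rise. Under testosterone it was lower in ARLmon than in wild type kidneys by -0.93 ± 0.18 (adjusted p = 5.22e-04). Under vehicle the ARLmon libraries just missed an overlap with those of the wild type, at 217.9 CPM in GC078618 against 218.0 CPM in GC078606. The difference of -0.40 ± 0.18 did not pass the threshold (adjusted p = 0.252). The change with testosterone in ARLmon kidneys was 0.25 ± 0.18 (95% interval -0.13 to 0.62) and -0.01 without GC078615. The difference between the testosterone effects was -0.53 ± 0.25 (adjusted p = 0.298), and -0.78 without GC078615 (adjusted p = 0.0159). Of the distinct 50-base stretches in its annotated transcripts, 6.59% also occur in other genes, foremost Gm6614, Slco1a5 and Gm5724, against 1.64% for Slco1a1 and 1.61% for Slco1a4, so a part of the reads in the cluster may be shared between genes. Of the 103 shared stretches of Slco1a4, 100 also occur in Slco1a5 and 84 in Slco1a1. Slco1a1 averaged 1431 CPM in wild type kidneys with testosterone, where Slco1a4 averaged 12.4 CPM. The part of such shared reads in the rise of Slco1a4 was not tested.

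The stretches before the transcription starts of these cluster members are shown because the 3 genes lie in one cluster and rose together, and those of Slco2b1 and Slco4c1 because they hold the androgen response half-site. Each line gives 250 bases upstream of a RefSeq start (GRCm38.p6, written 5′ to 3′ on the gene's own strand), with each TGTTCT on either strand in capitals. The windows are chr6:141946963-141947212, chr6:141856221-141856470, chr6:142186150-142186399, chr7:99695810-99696059 and chr1:96872172-96872421, all on the minus strand. The windows of Slco1a6 and Slco2b1 precede RefSeq starts that lie inside the extents given for these genes, whose outermost starts are farther upstream, and that of Slco2b1 is 1 of 3 for this gene.
Slco1a1: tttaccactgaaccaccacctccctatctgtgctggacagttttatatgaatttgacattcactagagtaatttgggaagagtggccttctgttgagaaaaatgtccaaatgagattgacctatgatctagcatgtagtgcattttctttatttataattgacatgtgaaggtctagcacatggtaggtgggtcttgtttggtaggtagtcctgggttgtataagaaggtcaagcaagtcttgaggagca
Slco1a4: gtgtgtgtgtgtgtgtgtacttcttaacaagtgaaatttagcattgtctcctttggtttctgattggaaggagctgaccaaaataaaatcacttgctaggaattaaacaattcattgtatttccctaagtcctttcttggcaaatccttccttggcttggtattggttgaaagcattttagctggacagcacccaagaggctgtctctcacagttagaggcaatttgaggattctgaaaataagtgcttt
Slco1a6: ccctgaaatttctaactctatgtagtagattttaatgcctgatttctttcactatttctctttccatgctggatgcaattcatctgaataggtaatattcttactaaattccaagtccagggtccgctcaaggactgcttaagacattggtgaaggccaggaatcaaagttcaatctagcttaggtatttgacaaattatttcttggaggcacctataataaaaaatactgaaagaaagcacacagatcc
Slco2b1: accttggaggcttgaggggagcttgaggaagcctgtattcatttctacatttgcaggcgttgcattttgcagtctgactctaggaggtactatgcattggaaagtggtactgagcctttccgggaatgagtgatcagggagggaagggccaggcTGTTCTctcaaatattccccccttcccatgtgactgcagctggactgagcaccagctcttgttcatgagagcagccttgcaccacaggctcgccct
Slco4c1: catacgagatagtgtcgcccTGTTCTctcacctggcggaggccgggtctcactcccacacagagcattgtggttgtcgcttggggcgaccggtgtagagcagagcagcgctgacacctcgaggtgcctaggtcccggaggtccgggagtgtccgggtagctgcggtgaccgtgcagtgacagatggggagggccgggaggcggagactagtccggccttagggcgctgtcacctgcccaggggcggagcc

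Promoter windows of 300 bases, with 250 before and 50 after the start, were at hand for 7 of the 9 members, 10 windows in all, with none for Slco3a1 and Slco5a1. The half-site TGTTCT occurred on one strand or the other in 3 of the 10, those of Slco2b1, Slco4a1 and Slco4c1, and in 6233 of 32851 windows of all genes (18.97%). The full element, AGAACA and TGTTCT with any 3 bases between them, occurred in 0 of the 10 windows and in 3 of all windows (0.00913%). The windows of Slco1a1, Slco1a4 and Slco1a6 held neither. A match is only a run of letters in a short window.

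Genes around Slco1a1 were compared in the same way. Within 1 Mb of it, 24 genes had reads, 18 were tested and 15 of these were no members. In wild type kidneys 7 of the 15 rose with testosterone and 0 fell, beside 9.36% and 6.36% of all tested genes. The 7 include Slco1b2, which passed the filter on low counts only through the wild type testosterone libraries. Apart from Slco1b2 the rises were of up to 1.21 ± 0.41. Between the genotypes under testosterone 1 of the 15 was higher and 8, again with Slco1b2, were lower in ARLmon, beside 15.6% and 15.5% of all genes. Under vehicle 1 was higher and 1 lower in ARLmon than in wild type kidneys, beside 1.99% and 2.38% of all genes. Gm20400, which is antisense to Slco1a6, was the higher one (1.44 ± 0.39, adjusted p = 0.0367). The lower one was the pseudogene Gm18159, at 0 reads in the ARLmon vehicle group. The exons of Gm20400 overlap none of Slco1a6 and lie within its introns. The strand setting of the counting is not given in the sources used here, so reads of unspliced Slco1a6 transcripts cannot be told apart from reads of Gm20400 with certainty.

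**Figure D4:**
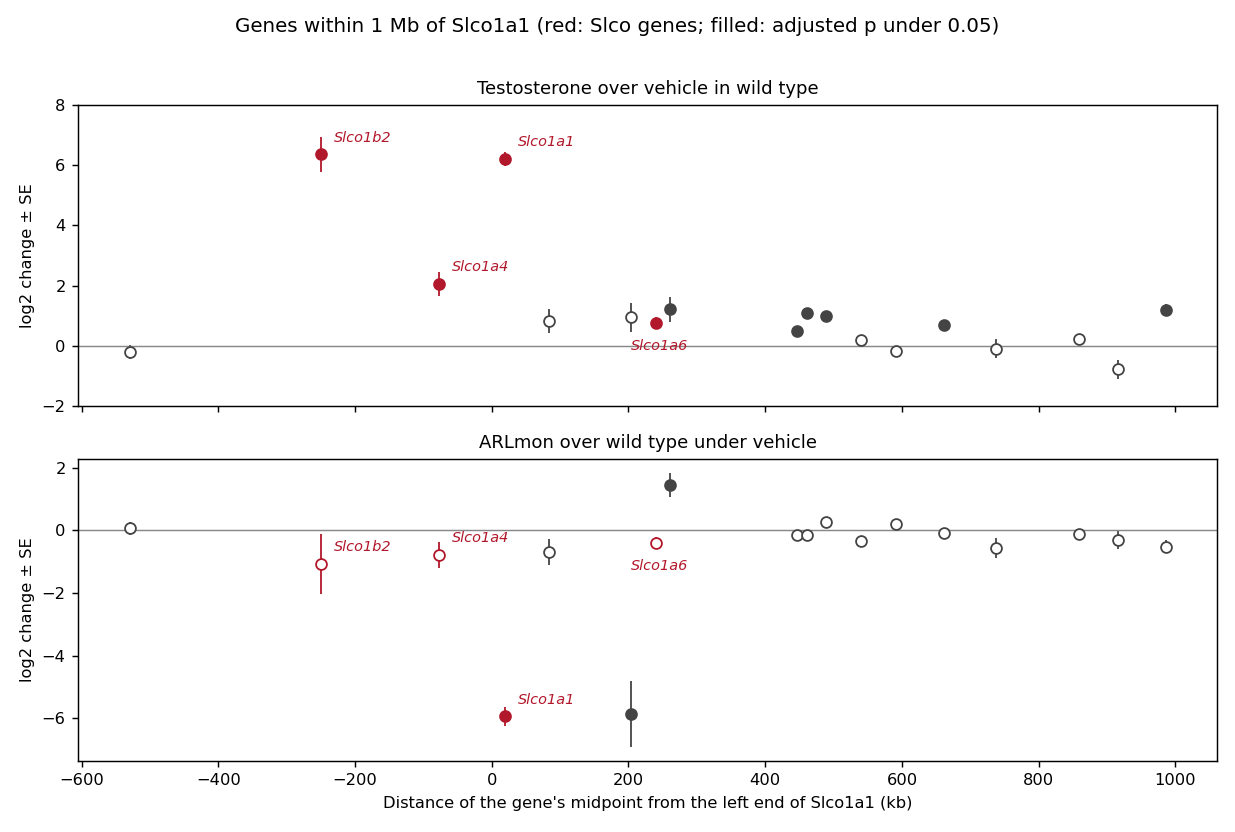
Points give the log2 change ± SE (y axis) of tested genes within 1 Mb of Slco1a1, by the distance of the gene's midpoint from the left end of Slco1a1 in kb (x axis), for testosterone over vehicle in wild type kidneys and for ARLmon over wild type kidneys under vehicle. Slco1b2 and Slco1a1 stand at 6.35 and 6.20 in the upper panel, and in the lower panel Slco1a1 and the near-absent Gm18159 stand at -5.94 and -5.86. The fitted values of Slco1b2 and Gm18159 rest on groups with 0 or 1 read and are no bounds.

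Slco1b2, a neighbour of Slco1a1 that is known as a carrier of hepatocytes, was one of the other Slco symbols in the count tables. It had 1 read over the ARLmon testosterone libraries, 0 over the ARLmon vehicle libraries, 8, 10, 11, 29 and 9 reads in the wild type testosterone libraries and 1 read over the wild type vehicle libraries. All 5 wild type testosterone libraries held it, and its pooled level there was 1.43 CPM. The ratio of testosterone over vehicle in wild type kidneys was 157, with a 95% counting interval of 27.3 to 6302 (edgeR adjusted p = 5.57e-07). Slco1b2 passed the filter on low counts only through the wild type testosterone libraries, where it is high. Its edgeR p is therefore no independent support for the rise. The 7 hepatocyte markers in the tables include Slco1b2 itself. With testosterone in wild type kidneys 2 of them rose, Slco1b2 among them, and 3 fell, beside 9.36% and 6.36% of all tested genes. Their summed level was 149.6 to 217.6 CPM in ARLmon kidneys with testosterone, 144.1 to 236.8 in ARLmon kidneys with vehicle, 2562 to 3344 in wild type kidneys with testosterone and 705.6 to 1396 in wild type kidneys with vehicle. Most of that sum was Cyp2e1, at 2912 and 814 CPM in wild type kidneys with testosterone and with vehicle, while Alb, which encodes albumin, averaged 3.01 and 9.81 CPM there. Their part in the result was not tested. Slco1c1 had 23, 22, 11 and 28 reads in the ARLmon testosterone, ARLmon vehicle, wild type testosterone and wild type vehicle groups, and was not tested.

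Slco3a1, which encodes a widely expressed carrier known in human and rat for prostaglandins, followed the same order of groups as Slco1a1 over a smaller range. The gene (chromosome 7, 74275419 to 74554780, minus strand) had 52.2, 47.7, 50.05, 64.1 and 47.0 CPM in the ARLmon testosterone libraries and 43.1, 57.1, 46.9, 45.6 and 36.4 CPM in the ARLmon vehicle libraries. It had 326, 316, 307, 366 and 410 CPM in the wild type testosterone libraries, against 99.9, 110, 118, 162 and 128 CPM in the wild type vehicle libraries. The ARLmon groups overlapped each other and lay wholly below the wild type vehicle group, which lay wholly below the wild type testosterone group. Testosterone raised Slco3a1 in wild type kidneys by 1.48 ± 0.13 (adjusted p = 6.79e-08), a 2.79-fold rise, and changed it by 0.19 ± 0.13 in ARLmon kidneys (95% interval -0.09 to 0.47, adjusted p = 0.774). The testosterone effects differed by -1.29 ± 0.19 (ARLmon minus wild type, adjusted p = 1.45e-04). Slco3a1 was lower in ARLmon than in wild type kidneys by -2.72 ± 0.14 under testosterone (adjusted p = 4.22e-12) and by -1.43 ± 0.14 under vehicle (adjusted p = 4.28e-07). None of its 50-base stretches occurs in another annotated gene.

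The summed level of the proximal tubule markers given above was highest in wild type kidneys with testosterone, as for Slco1a1, Slco1a4, Slco1a6 and Slco3a1. Of the 13 markers, 7 rose and 1 fell with testosterone there, beside 9.36% and 6.36% of all tested genes. Within the list Acsm3 averaged 2508 and 161 CPM in wild type kidneys with testosterone and with vehicle, and Lrp2 2352 and 2334 CPM. The part of these markers in the changes was not tested.

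Genes with the most similar pattern were found by the root mean square difference of log2 CPM over the 20 libraries, each gene centred on its mean, among 11099 genes with a group mean of at least 5 CPM. For Slco1a1 these were Cyp2j13, a cytochrome P450 gene, at 1.40, Pzp, which encodes a protease inhibitor, at 1.45, and Slc7a13, which encodes an amino acid transporter of the proximal tubule, at 1.56, beside a spread of Slco1a1 about its own mean of 4.86. Cyp2j13 averaged 1.10 and 0.761 CPM in ARLmon kidneys with testosterone and with vehicle, and 671 and 76.5 CPM in wild type kidneys with testosterone and with vehicle. For Slco3a1 the closest were Serpinf2, which encodes the plasmin inhibitor alpha-2-antiplasmin, at 0.22, the lactate dehydrogenase gene Ldhd at 0.263 and Erc2 at 0.268, beside a spread of 1.18. Serpinf2 averaged 85.7 and 77.6 CPM in ARLmon kidneys with testosterone and with vehicle, and 612 and 208 CPM in wild type kidneys with testosterone and with vehicle.

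Slco2b1 and Slco2a1 went the other way and fell with testosterone in wild type kidneys. Slco2b1 (chromosome 7, 99657804 to 99711340, minus strand) encodes Oatp2b1, known in human as a carrier of conjugated steroids with a broad tissue range. It had 28.8, 29.5, 25.7, 29.6 and 24.6 CPM in the ARLmon testosterone libraries, 30.0, 24.0, 29.7, 33.4 and 33.0 CPM in the ARLmon vehicle libraries, 21.2, 20.3, 22.9, 23.5 and 24.1 CPM in the wild type testosterone libraries and 40.2, 35.1, 32.1, 34.2 and 41.1 CPM in the wild type vehicle libraries. The wild type testosterone group was lowest and overlapped neither its vehicle group nor the ARLmon testosterone group. Testosterone lowered Slco2b1 in wild type kidneys by log2 -0.70 ± 0.10 (adjusted p = 2.99e-05), so that its level fell by 38.5%, and changed it by -0.12 ± 0.10 in ARLmon kidneys (95% interval -0.32 to 0.08, adjusted p = 0.774). The effects differed by 0.58 ± 0.14 (ARLmon minus wild type, adjusted p = 0.0148). Slco2b1 was higher in ARLmon than in wild type kidneys under testosterone (0.30 ± 0.10, adjusted p = 0.0259), and this call was lost without any one of GC078607, GC078608, GC078612, GC078613 and GC078615 (adjusted p 0.0522 to 0.0647). Under vehicle the difference was -0.28 ± 0.10 (adjusted p = 0.116). Its exons overlap those of the antisense gene Gm15635 over 471 bases and, over fewer bases, those of Gm34280, so its values are uncertain to that extent. Markers of podocytes and of smooth muscle and renin cells went the way of Slco2b1 and Slco2a1 for testosterone in wild type kidneys. They did so too between the genotypes under testosterone. Under vehicle the median log2 difference, ARLmon over wild type, was 0.36 over the podocyte markers and -0.01 over the smooth muscle and renin cell markers. In that comparison Slco2b1 stood at -0.28 and Slco2a1 at -0.002, and neither was called. Over all tested genes 6.36% fell with testosterone in wild type kidneys, and 15.6% were higher in ARLmon under testosterone. Of 8 podocyte markers, all with reads, 7 fell with testosterone in wild type kidneys and 8 were higher in ARLmon than in wild type kidneys under testosterone. Their sum was 576.5 to 697.8 CPM in ARLmon kidneys with testosterone, 612.6 to 746.7 in ARLmon kidneys with vehicle, 331.0 to 420.6 in wild type kidneys with testosterone and 433.2 to 644.6 in wild type kidneys with vehicle. Of 7 smooth muscle and renin cell markers, all with reads, 4 fell with testosterone in wild type kidneys and 7 were higher in ARLmon under testosterone. Their sum was 350.7 to 479.3 CPM in ARLmon kidneys with testosterone, 341.2 to 467.9 in ARLmon kidneys with vehicle, 239.8 to 297.1 in wild type kidneys with testosterone and 319.6 to 601.8 in wild type kidneys with vehicle. The part of these lists in the values of Slco2b1 and Slco2a1 was not tested.

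Slco2a1 (chromosome 9, 102988712 to 103096002, plus strand), the prostaglandin transporter gene, had 48.6, 46.7, 47.5, 57.8 and 41.8 CPM in the ARLmon testosterone libraries and 45.3, 44.1, 45.8, 42.9 and 37.4 CPM in the ARLmon vehicle libraries. It had 28.3, 38.1, 28.1, 34.5 and 39.4 CPM in the wild type testosterone libraries, against 43.6, 36.9, 36.5, 47.2 and 51.8 CPM in the wild type vehicle libraries. The wild type groups overlapped, and the ARLmon testosterone libraries all lay above the wild type testosterone libraries. The fall with testosterone in wild type kidneys was -0.35 ± 0.12 (adjusted p = 0.0466). That call was lost with no filter on low counts (adjusted p = 0.0541), with limma-voom (0.0661), with the 2 groups fitted alone (0.0823) and when any one of 12 of the 20 libraries was left out (adjusted p 0.0516 to 0.133). Slco2a1 was higher in ARLmon than in wild type kidneys under testosterone by 0.52 ± 0.12 (adjusted p = 0.00203), and its log2 difference under vehicle was -0.00 ± 0.12 (95% interval -0.25 to 0.24). Slco2a1 is known from endothelial and collecting duct cells. All 12 endothelial markers had reads, and their sum was 706.4 to 882.5 CPM in ARLmon kidneys with testosterone, 720.2 to 815.0 in ARLmon kidneys with vehicle, 543.0 to 579.7 in wild type kidneys with testosterone and 544.8 to 893.9 in wild type kidneys with vehicle. Of these 12 genes, 10 were higher in ARLmon than in wild type kidneys under testosterone, beside 15.6% of all tested genes. With testosterone in wild type kidneys 2 of the 12 fell, beside 6.36% of all tested genes. All 9 collecting duct markers had reads, and their sum was 780.4 to 1324 CPM in ARLmon kidneys with testosterone, 903.4 to 1444 in ARLmon kidneys with vehicle, 639.3 to 905.1 in wild type kidneys with testosterone and 667.2 to 1142 in wild type kidneys with vehicle. Of these 9 genes, 4 were higher and 0 lower in ARLmon under testosterone, beside 15.6% and 15.5% of all tested genes. For testosterone in wild type kidneys 0 of the 9 were called, beside 15.7% of all tested genes. The part of either list in the values of Slco2a1 was not tested.

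Slco4c1 and Slco4a1 encode carriers known in human and rat for the transport of thyroid hormones, and the human and rat proteins of Slco4c1 also carry cardiac glycosides at the basolateral side of the proximal tubule. Slco4c1 (chromosome 1, 96816270 to 96872171, minus strand) had 10.1, 10.3, 7.11, 22 and 5.03 CPM in the ARLmon testosterone libraries and 5.92, 5.47, 7.12, 7.86 and 2.86 CPM in the ARLmon vehicle libraries. It had 12.2, 25.1, 15.7, 33.3 and 42.7 CPM in the wild type testosterone libraries, against 47.8, 31.3, 10.8, 62.6 and 15.7 CPM in the wild type vehicle libraries. The vehicle groups of the genotypes did not overlap, and the wild type groups overlapped widely. Slco4c1 was lower in ARLmon than in wild type kidneys under vehicle by -2.54 ± 0.47 (adjusted p = 0.00199), a 5.81-fold difference. Under testosterone the difference was -1.24 ± 0.45 (adjusted p = 0.0402), a call that was lost under library size scaling (adjusted p = 0.079), with limma-voom (0.0615), on the deposited log2 values (0.0961) and without any one of GC078608, GC078610, GC078611, GC078612, GC078613, GC078614 and GC078616. Testosterone changed it by 0.91 ± 0.47 in ARLmon kidneys (95% interval -0.06 to 1.89) and by -0.38 ± 0.43 in wild type kidneys (95% interval -1.28 to 0.51), and neither passed the threshold (adjusted p = 0.774 and 0.602). With each library left out in turn these values ran from 0.47 (without GC078615) to 1.10 (without GC078616) in ARLmon kidneys and from -0.64 (without GC078611) to -0.03 (without GC078605) in wild type kidneys. Its biological coefficient of variation of 0.475 was above that of 98.3% of tested genes.

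Slco4a1 (chromosome 2, 180456245 to 180474867, plus strand) averaged 48.8 ± 8.01 and 40.0 ± 8.03 CPM in ARLmon kidneys with testosterone and with vehicle, and 33.8 ± 9.24 and 41.5 ± 17.4 CPM in wild type kidneys with testosterone and with vehicle. It was the tested member without a call in any comparison. The difference between the genotypes under testosterone was 0.53 ± 0.24 (95% interval 0.02 to 1.03, adjusted p = 0.107). It passed the threshold under library size scaling (adjusted p = 0.0172), on the deposited log2 values (0.0213) and with the 2 groups fitted alone (0.0196). Slco5a1 (chromosome 1, 12866549 to 12992650, minus strand), an orphan carrier, had 9, 5, 3 and 4 reads over the ARLmon testosterone, ARLmon vehicle, wild type testosterone and wild type vehicle groups. A difference in it was not detectable at this depth, since the ratio of ARLmon over wild type kidneys under testosterone, 1.83, had a 95% counting interval of 0.457 to 10.5.

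ARLmon kidneys with testosterone were also set against wild type kidneys with vehicle. This asks how far mutants given testosterone lay from orchidectomized wild type mice given vehicle. All 4 members called were lower in ARLmon, beside 3.03% of all genes called, 1.25% higher and 1.78% lower. The libraries of 3 members did not overlap in this comparison, as for 3.9% of all genes. Slco1a1 differed by -5.80 ± 0.30 (adjusted p = 2.44e-11) and Slco3a1 by -1.24 ± 0.13 (adjusted p = 3.56e-06). Slco2b1 at -0.40 ± 0.10 (adjusted p = 0.0247) and Slco4c1 at -1.62 ± 0.44 (adjusted p = 0.0491) lost their calls when any one of 4 and of 14 libraries was left out. For the difference between the testosterone effects of the genotypes, 3 members were called, 1 higher and 2 lower, beside 4.77% of all genes, 1.42% higher and 3.34% lower. These were Slco1a1, Slco2b1 and Slco3a1, with the values given above. Slco2a1 stood at 0.53 ± 0.17 (adjusted p = 0.0802) and was called under library size scaling (0.0216), with DESeq2 (0.0491), on the deposited log2 values (0.031) and without GC078604 (0.0385).

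Spread between libraries of a group differed among the members. The biological coefficient of variation was 0.111 for Slco2b1, 0.132 for Slco2a1, 0.153 for Slco3a1, 0.178 for Slco1a1 and 0.202 for Slco1a6, and at most 65.7% of tested genes had a lower value. It was 0.264 for Slco4a1 and 0.422 for Slco1a4, above 83.7% and 97.2% of tested genes. Slco1a4 was lowest of its group in GC078604 and in GC078618, the libraries farthest along the axis within groups, at 0.856 and 0.684 CPM. Without both, its rise with testosterone in wild type kidneys was 1.81 (adjusted p = 6.49e-04). Slco4c1 was lowest of its group in GC078604, and without both libraries its difference between the genotypes under vehicle was -2.75 (adjusted p = 0.00142).

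Other genes of organic anion handling moved in both directions. Of 17 transporters that work beside OATPs in the tubule, 6 rose and 5 fell with testosterone in wild type kidneys. Over all tested genes 9.36% rose and 6.36% fell. The urate and phosphate transporter genes Slc17a3 and Slc17a1 rose by 1.63 ± 0.17 and 0.62 ± 0.08, while the drug efflux pump gene Abcb1b and the organic anion transporter gene Slc22a8 changed by -2.45 ± 0.28 and -1.80 ± 0.23. Under vehicle 3 of the 17 were higher and 3 lower in ARLmon than in wild type kidneys, beside 1.99% and 2.38% of all genes. The efflux pump genes Abcc3 and Abcc4 differed by 3.13 ± 0.32 and 1.32 ± 0.17, and Slc17a1 and the organic anion transporter gene Slc22a6 by -0.59 ± 0.08 and -0.76 ± 0.12. Under testosterone 6 were higher and 6 lower in ARLmon, beside 15.6% and 15.5% of all genes.

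Oatp1a1 is held at the apical membrane by PDZ-domain scaffold proteins. The gene of its main scaffold, Pdzk1, averaged 1152 and 1107 CPM in ARLmon kidneys with testosterone and with vehicle, and 1363 and 1156 CPM in wild type kidneys with testosterone and with vehicle, and was called in none of the comparisons (0.24 ± 0.11 for testosterone in wild type kidneys, adjusted p = 0.16). With testosterone in wild type kidneys the scaffold gene Slc9a3r1 rose by 0.48 ± 0.14, and the scaffold gene Slc9a3r2 and Pdzk1ip1, which encodes a small membrane protein that binds PDZK1, changed by -0.56 ± 0.14 and -0.80 ± 0.18, and both fell.

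Of 10 tested genes of thyroid hormone handling, 2 rose and 3 fell with testosterone in wild type kidneys. The shares over all tested genes were 9.36% and 6.36%. Ttr, which encodes transthyretin, rose by 0.80 ± 0.23, and the transporter gene Slc7a8 and the deiodinase gene Dio1 changed by -0.88 ± 0.10 and -1.80 ± 0.21. Under vehicle Dio1 was higher and Ttr lower in ARLmon than in wild type kidneys, by 1.36 ± 0.20 and -1.14 ± 0.23. Of 15 tested prostaglandin genes, 2 rose and 0 fell in wild type kidneys, beside 9.36% and 6.36% of all genes. Those that rose were Ptgr1 (0.56 ± 0.17) and Ptgr2 (0.35 ± 0.10), which encode prostaglandin reductases. Between the genotypes under testosterone 4 of the 15 were higher and 2 lower in ARLmon, beside 15.6% and 15.5% of all genes.

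Of 12 tested genes for the making and conjugation of steroids, whose conjugates OATPs carry, 6 rose and 3 fell with testosterone in wild type kidneys. Over all tested genes 9.36% rose and 6.36% fell. Srd5a2, which encodes a steroid 5-alpha-reductase, rose by 3.41 ± 0.31, the steroid dehydrogenase gene Hsd17b11 by 2.89 ± 0.10 and the glucuronosyltransferase gene Ugt2b38 by 2.09 ± 0.17, while Ugt1a2, of the same enzyme class, changed by -4.38 ± 0.49. Under vehicle Ugt1a2 and Ugt2b34 were higher in ARLmon than in wild type kidneys by 5.57 ± 0.28 and 1.67 ± 0.22, and Ugt2b38 and Ugt2b37 were lower, by -1.84 ± 0.17 and -3.53 ± 0.50. Of 14 genes for nuclear receptors and other regulators linked to Slco genes in mice, 4 rose and 2 fell in wild type kidneys with testosterone. The shares over all tested genes were 9.36% and 6.36%. The transcription repressor gene Bcl6 rose by 2.24 ± 0.34 and the bile acid receptor gene Nr1h4 by 0.83 ± 0.13, and the xenobiotic receptor gene Nr1i2 changed by -1.45 ± 0.16. Between the genotypes under testosterone 3 of the 14 were higher and 5 lower in ARLmon, beside 15.6% and 15.5% of all genes.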

How the data were processed

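Libraries had been made from kidney RNA with a stranded poly(A) kit, per the labels' protocols. The submitters' processing notes list HISAT2, HTSeq 2.7.14 (so written), SAMtools 1.5, FastQC 0.11.7 and DESeq2 with the mm10 build, and counting settings are not given in the sources used here. The authors deposited 4 tables of raw counts per gene, 10 libraries each, and a table of log2 values for 20550 genes whose normalization is not stated. The tables of counts held the same values for shared libraries and were joined; 12045 values of genes missing from a table were set to 0. Columns of the counts name a library, whose group was taken from the header lines of the deposited log2 values, and all were mapped.

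The quasi-likelihood test of edgeR 4.0.16, run in R 4.3.3, was fitted to the 4 group means after filterByExpr and TMM scaling, with 16 residual degrees of freedom. Contrasts set testosterone over vehicle in each genotype, ARLmon over wild type under each treatment, and ARLmon with testosterone over wild type with vehicle. A further contrast was the testosterone effect in ARLmon minus that in wild type kidneys. Intervals for low counts are exact at 95% and cover counting error only. Alternatives were RLE factors, scaling by library size alone, the 10 most abundant genes left out, no filter, a filter of 1 CPM in 5 libraries, DESeq2 1.42.0, limma-voom and limma on the deposited log2 values with limma 3.58.1, the compared groups alone, and fits that each lack 1 library. A fit without GC078604 and GC078618 was chosen after seeing the data.

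The members and gene lists were chosen with earlier results of these data known. All 9 members are named, up to 4 genes of each list with the smallest adjusted p, and the 3 genes most like Slco1a1 and Slco3a1, without predicted genes. Some genes that this rule takes are not reported here. Genes near Slco1a1, marker genes and some values of single libraries are named beside the results they touch. Positions are from GENCODE on GRCm38 and promoter sequences from RefSeq (GRCm38.p6). The test was also run on counts simulated from the fitted spread of these data. Such counts follow the model of the test, so that run does not show how the test does on the real counts. Figures were drawn with matplotlib 3.10.9.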

Additional observations from a re-analysis of the deposited data

Results flagged for a closer look

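Among 32 sets of 5 libraries (8 members in 4 groups), 2 held a library whose gap to its nearest neighbour was above Dixon's critical value of 0.71 of the range, and chance flags about 1 in 20 groups. Slco1a4 stood at 25.45 CPM in the wild type testosterone library GC078611, a gap of 0.947 of the range. Slco1a6 stood at 368.5 CPM in the ARLmon testosterone library GC078615, a gap of 0.839 of the range. GC078615 also had the highest levels of its group for Slco2a1 (57.8 CPM), Slco3a1 (64.1 CPM) and Slco4c1 (22 CPM).

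The effect of testosterone differed between the genotypes, by the interaction test of edgeR, for Slco1a1 (log2 -6.064, ARLmon minus wild type, adjusted p = 3.76e-06), Slco2b1 (0.5824, adjusted p = 0.0148) and Slco3a1 (-1.289, adjusted p = 1.45e-04).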

How the results depend on the processing

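No paired analysis was possible because the columns of the count tables carry no replicate number. For testosterone in wild type kidneys 5 to 6 members were called with each library left out in turn, and in ARLmon kidneys 0 to 0. Between the genotypes it was 5 to 7 under testosterone and 3 to 3 under vehicle, and 3 to 4 for the difference of the effects. For ARLmon testosterone over wild type vehicle the count was 2 to 4, and it was 2 instead of 4 under library size scaling, on the deposited log2 values and with the compared groups alone. The calls it lost without 1 library were those of Slco4c1 (without any one of GC078602, GC078603, GC078605, GC078608, GC078609, GC078610, GC078612, GC078613, GC078614, GC078616, GC078617, GC078618, GC078619 and GC078620) and of Slco2b1 (GC078602, GC078606, GC078614 and GC078616). The libraries behind the loss of the Slco2a1 call for testosterone in wild type kidneys were GC078602, GC078605, GC078606, GC078607, GC078609, GC078610, GC078612, GC078613, GC078614, GC078617, GC078619 and GC078620. The cause was not tested.

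Signs turned only for values far from the threshold. Slco1a1 with testosterone in ARLmon kidneys was -0.111 on the deposited log2 values. Under vehicle Slco2a1 between the genotypes was 0.0624 under library size scaling, 0.000195 with the stricter filter, 0.0132 with limma-voom and 0.0636 on the deposited log2 values, and Slco4a1 was 0.0183, 0.0635 and 0.0959 under library size scaling, limma-voom and the deposited log2 values. With single libraries left out these ran from -0.242 to 0.558 for Slco1a1, -0.0652 to 0.0678 for Slco2a1 and -0.223 to 0.103 for Slco4a1, and Slco1a6 with testosterone in ARLmon kidneys from -0.00758 to 0.327.

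Library size scaling gave Slco2b1 20.13 CPM in wild type kidneys with testosterone instead of 22.4, and moved the median log2 change of all genes to -0.183 for testosterone in wild type kidneys, where 897 genes were then called higher and 2687 lower instead of 1455 and 989, and to 0.28 between the genotypes under testosterone, with 5690 higher and 1213 lower instead of 2431 and 2411. Depth limits Slco5a1, Slco1b2 and Slco1a1 in ARLmon kidneys, which rest on 67 reads or fewer per group.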

Other observations

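The authors' deposited log2 table, whose normalization is not stated, ranks the members otherwise than the counts do. In wild type kidneys with vehicle Slco2a1 averaged 8.56 ± 0.25 and Slco1a6 6.09 ± 0.19 in that table, while their mean counts were 43.2 and 248.9 CPM. The table also lists Slco1a5, a further gene of the Oatp1a cluster, at -2.62 ± 0.80 and -3.21 ± 0.51 in ARLmon kidneys with testosterone and with vehicle, and at -0.20 ± 0.65 and -2.72 ± 0.55 in wild type kidneys with testosterone and with vehicle (log2 values, n = 5 each).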
